A study of Mus musculus with 36 samples.

Results

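The genes described here encode lysosomal cathepsins and 2 partners. They are the 7 cysteine cathepsins Ctsk, Ctsb, Ctsl, Ctss, Ctsh, Ctsc and Ctsz, the aspartic cathepsin Ctsd, the acid phosphatase Acp5, known as TRAP, and the inhibitor Cst3, known as cystatin C. They were chosen by gene symbol and are 10 of the 30205 genes whose transcripts the deposited tables list. The value of a gene is the sum over its Ensembl transcripts, of which between 1 and 11 were listed for each member. RNA was sequenced from primary cells of 20-week-old mice, either wild-type (WT) controls or mice of the genotype Mir324-null, which lack a microRNA gene. Bone marrow macrophages (BMM), the precursors of osteoclasts, were kept with 30 ng/mL of M-CSF, a growth factor, over 5 days. Cultures labelled osteoclasts (OC) had 30 ng/mL of M-CSF with 50 ng/mL of RANK-L, the cytokine that drives osteoclast formation, over the same 5 days. Osteoblasts (OB), the cells that form bone, came from bone and spent 18 days in osteogenic medium with 2 mM β-glycerophosphate and 50 µg/mL ascorbic acid. There were 6 libraries in a group and 36 over the 6 groups, and they held between 14118972 and 26347581 estimated counts. The labels do not say how the null allele was made, and no check of the genotypes against the level of Mir324 was made here. They also do not say whether the libraries of a group came from separate mice, so p-values measure only the spread between these libraries, which may be technical.

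Cathepsins are made as inactive precursors, carried to the lysosome mainly by mannose-6-phosphate receptors and activated there at acid pH, where macrophages use them to digest what they take up. An osteoclast acidifies a sealed space on the bone surface and releases cathepsin K into it, which cuts the collagen of the bone matrix, while TRAP activity is the classic stain for osteoclasts. Cystatin C is secreted and blocks the active site of cysteine cathepsins, not that of the aspartic cathepsin D.

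The labelled cell types were checked against marker genes that are not members. In TPM, a level that allows for transcript length, 10 osteoclast markers summed to 7005 to 9388 over the WT OC libraries, against 513 to 598 in null OC, 547 to 662 in WT BMM and 394 to 494 in null BMM. The WT BMM sums were mostly Tcirg1, at a mean of 386 TPM, which was at 246 in null OC. Mmp9 averaged 0.288 TPM in WT BMM, 105 in null BMM, 150 in null OC and 4584 in WT OC. In the comparison of null OC with null BMM described below, 7 of the 10 osteoclast markers were higher and 0 were lower. Among all genes, 6.78% were higher and 6.07% lower. The calcitonin receptor gene Calcr, a defining osteoclast marker, was listed at 0 in all libraries of null OC, null BMM and WT BMM. The name null OC therefore stands below for a culture, not for a cell type found in it. Of macrophage markers, 10 summed to 53032 to 62509.5 TPM in null OC and 15659 to 17558 in WT OC. Lyz2 made up most of these sums, at a mean of 49807 TPM in null OC and 11858.5 in WT OC. Cd68 went the other way, at 2393 and 3328, and the calls of the 10 markers are given below. Osteoblast markers (10 genes) summed to 34373 to 46022 TPM in WT OB and 50718 to 65936 in null OB. These OB cultures also held osteoclast markers, at 893 to 1175 TPM in WT and 1329.9 to 2207 in null, and macrophage markers, at 14883 to 18805 and 8669.9 to 13483. Lyz2 made up most of the macrophage sums here too, at a mean of 14900 TPM in WT OB and 9609 in null OB. Neutrophil markers (10 genes) reached 171 to 219 TPM in null BMM and 174 to 216 in null OC, against 13.8 to 16.6 in WT BMM and 8.45 to 12.3 in WT OC, with Elane and Retnlg, both defining markers, at 0 in all 4 groups and with Mmp8 and S100a8 the only 2 that passed the filter on low counts there. Lists of dendritic, adipocyte, and lymphoid and mast cell markers, 6 genes each, stayed at or below 9.29, 41.9 and 1.11 TPM. In such bulk samples, fewer cells of a type and less RNA per cell cannot be told apart.

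The abundance of the 10 genes differed widely, and together they took 3.93 to 4.23 (median 3.95) percent of all TPM in WT OC and 3.17 to 3.39 (median 3.26) percent in WT BMM. In null OC they took 2.45 to 2.66 (median 2.59) percent and in null BMM 2.49 to 2.73 (median 2.54) percent, ranges that overlap. The OB cultures were lowest, at 1.45 to 1.65 (median 1.55) percent in WT and 1.29 to 1.49 (median 1.42) percent in null. Ranked by mean TPM among all genes, Ctsk stood at rank 2 in WT OC and at rank 1717 in null OC. Ctsd stood at rank 4 in WT BMM and rank 6 in null BMM, and Ctsb at rank 6 and rank 9. Other members stood far lower in some cultures: in WT BMM, Ctsk was at rank 7287 and Acp5 at rank 6950, and in WT OC, Ctsh was at rank 2663.

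Which cysteine cathepsin led differed between the cultures. The sum of the 7 was 23552 to 25267 (median 23895) TPM in WT OC, 14754 to 16752 (median 15761) in WT BMM, 10852 to 12531 (median 11447) in null BMM and 10803 to 11952 (median 11181) in null OC. In the OB cultures it was 7200.0 to 8072 (median 7519) TPM in WT and 6772 to 8251 (median 7464) in null, ranges that overlap. Ctsk made up 67.3 to 69.7 percent of that sum in WT OC and 0.335 to 1.87 percent in null OC. Ctsb held the largest share in null OC, at 50.2 to 54.6 percent, as it did in WT BMM at 61.3 to 63.1 percent and in null BMM at 49.1 to 54.4 percent. In WT OB the shares of Ctsb and Ctsk overlapped, at 29.8 to 32.7 and 26.6 to 30.5 percent. In null OB they did not: every library had more Ctsk, at 34.8 to 47.6 percent, than Ctsb, at 20.7 to 27.4 percent.

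**Figure D1:**
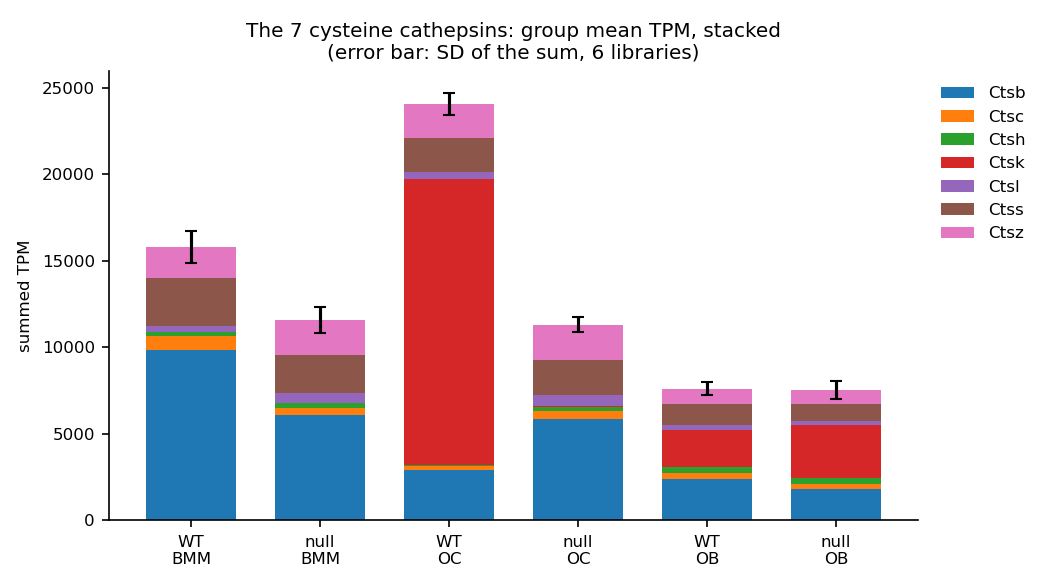
Mean summed TPM of the 7 cysteine cathepsins (y axis) in the 6 groups (x axis), stacked by gene, with the SD of the sum over 6 libraries as the error bar. The Ctsk segment fills most of the WT OC bar and is a thin line in null OC, where Ctsb takes 50.2 to 54.6 percent of the sum.

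Null cultures were compared with WT cultures of the same cell type on estimated counts (edgeR's quasi-likelihood test, Benjamini-Hochberg adjusted p under 0.05 over all genes tested). In BMM, 4 members were higher in null (Acp5, Ctsh, Ctsl and Ctsz), 4 were lower (Ctsk, Ctsc, Ctsb and Ctss), and Ctsd and Cst3 did not pass. That is 8 of 10, against 52.3% of the 11925 genes tested, 27% higher and 25.4% lower. The median log2 change of the members was -0.11, and 0.02 over all genes tested. In OC all 10 members passed, against 65.6% of 12121 genes: 7 were higher in null, against 32.4%, and Ctsk, Acp5 and Cst3 were lower, against 33.1%. The median of the members was 0.56, and -0.03 over all genes. In OB, 8 of 10 passed, against 32.5% of 13607 genes: Ctsk alone was higher, against 15.5%, and 7 members were lower, against 16.9%, with Acp5 and Ctsh not past the threshold. The median there was -0.38, and 0.00 over all genes. The difference between the genotype change in OB and that in OC passed for 9 of 10 members, against 55.2% of 14268 genes, with Ctsk and Acp5 higher (27.8% of genes) and 7 cathepsins lower (27.4%). It did not pass for Cst3. Tests with limma on log2(TPM + 1) shifted the median of all genes by -0.14 in BMM, -0.17 in OC and 0.14 in OB, and the share of calls that were higher in null moved from 51.5% to 32.9%, from 49.4% to 32.2% and from 47.9% to 81.1%. For the difference between OB and OC the shift was 0.28, and the share of higher calls moved from 50.4% to 75.7%. A change near the size of those shifts depends on the scale, and such members are named below.

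**Figure D2:**
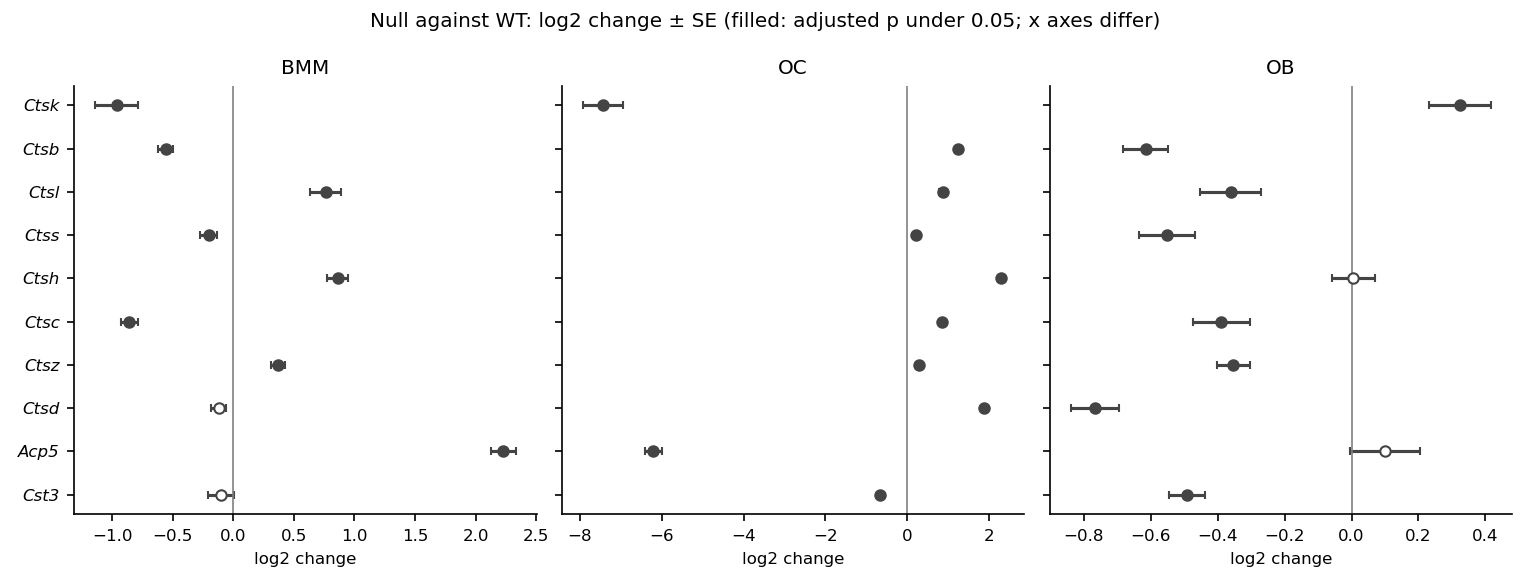
Log2 change in null against WT (x axis, with its own scale in each panel) for the 10 genes (y axis) in BMM, OC and OB, with SE bars and filled points where the adjusted p was under 0.05. Ctsk and Acp5 lie at -7.43 and -6.20 in OC, and 7 of the 10 genes lie below 0 with filled points in OB.

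RANK-L separates the OC cultures from the BMM cultures of a genotype. In WT, 8 of 10 members differed between OC and BMM, against 60.5% of 12661 genes: Ctsk, Acp5 and Cst3 were higher in OC, against 30.4%, and Ctsd, Ctsb, Ctsh, Ctsc and Ctss were lower, against 30.1%. In null, 3 of 10 differed, against 12.9%: Ctsk and Acp5 were higher, against 6.78%, and Ctsh was lower, against 6.07%. The test of the difference between the responses passed for 8 members, against 51.4% of genes. The response was more positive in null for 5 of them (25.3% of genes) and more negative for Ctsk, Acp5 and Cst3 (26.1%). On log2(TPM + 1) the share of calls that were higher in OC moved from 50.2% to 61% in WT and from 52.8% to 64.5% in null. The comparison of genotypes in OC and the RANK-L response in WT share the WT OC libraries, so their values are given side by side and were not tested against each other.

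**Figure D3:**
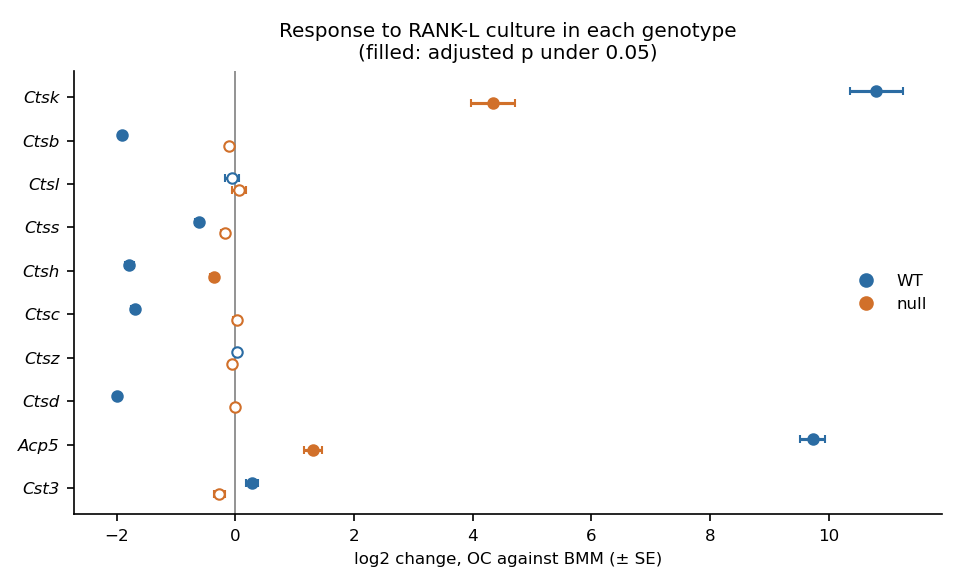
Log2 change of OC against BMM (x axis) with SE bars for the 10 genes (y axis), in WT and in null, with filled points where the adjusted p was under 0.05. Ctsk and Acp5 lie far to the right in WT, at 10.79 and 9.73, and at 4.34 and 1.31 in null, while the 5 cathepsins that were lower in WT OC lie between -0.35 and 0.03 in null.

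Levels of each member follow in TPM, as the lowest to the highest of the 6 libraries of a group with the median. Log2 changes come from the counts, null against WT or OC against BMM, and RANK-L is used for the comparison of OC with BMM cultures.

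**Figure D4:**
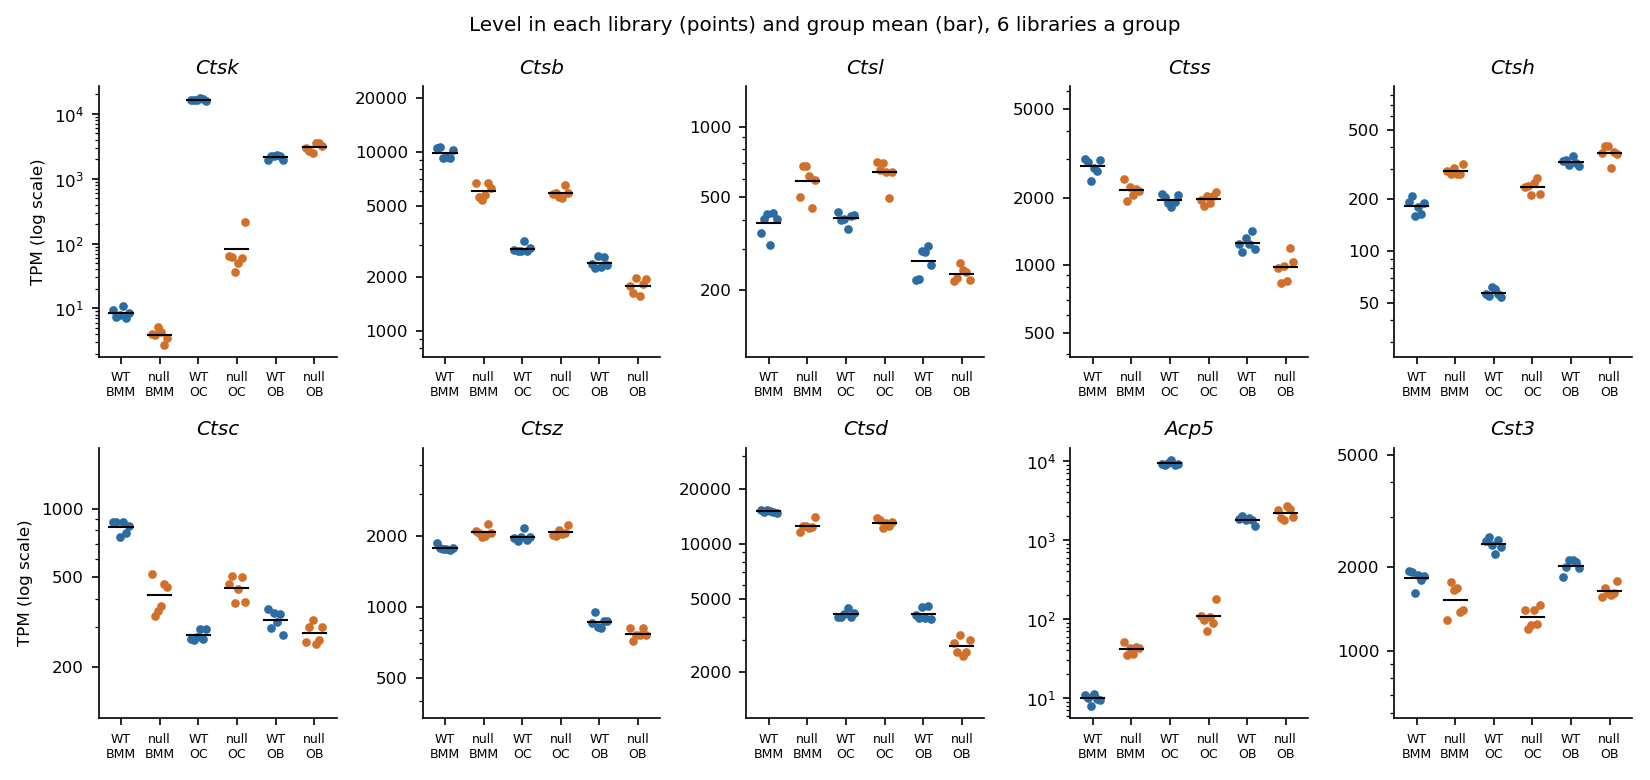
TPM (y axes, log scale) of each of the 10 genes in the 36 libraries, by group (x axis), with 1 point a library and a bar at the group mean. Mean Ctsk runs from 3.93 in null BMM to 16526 in WT OC, with 1 null OC library above the other 5, while mean Cst3 runs only from 1325 to 2413.

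Ctsk, the collagen-cutting protease of the osteoclast, lies at chr3:95499256-95509362, plus strand (GRCm38, GENCODE M21), and 1 transcript was listed. Its promoter is shown because its level spanned the widest range of the 10 genes. The 150 bases before the RefSeq start site (chr3:95499060-95499209, plus strand, GRCm38.p6), written 5′ to 3′, hold 1 match to the PU.1 core GAGGAA, here on the other strand and in capitals, which begins 58 bases before the start. Another match lies 233 bases before it, outside the bases shown.
Ctsk: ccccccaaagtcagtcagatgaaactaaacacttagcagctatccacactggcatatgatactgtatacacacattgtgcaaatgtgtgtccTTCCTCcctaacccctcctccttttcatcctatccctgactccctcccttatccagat
That core occurs on either strand in 23.3% of the 32851 RefSeq windows of the same 250 bases before a start, and none of the cores searched for AP-1 (TGANTCA), the M-box (TCANGTG) or NFAT (TGGAAA) was found in the Ctsk window. These cores occur in 6.75%, 12.2% and 18.6% of windows. A match describes letters, not a bound site.

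In WT OC, Ctsk was at 15888 to 17388 TPM (median 16398), and in WT BMM at 7.18 to 10.9 (median 8.2). The log2 difference was 10.79 (SE 0.45, adjusted p 1.29e-15). In null OC the libraries ran from 37 to 218 (median 61), and in null BMM from 2.77 to 5.17 (median 3.93), a log2 difference of 4.34 (SE 0.37, adjusted p 1.06e-06). No library of these 4 groups lay within the range of another group, and null OC stood between the BMM groups and WT OC. Null was lower than WT with a log2 change of -7.43 (SE 0.48, adjusted p 1.94e-08) in OC and with a log2 change of -0.96 (SE 0.17, adjusted p 2.50e-04) in BMM. The responses to RANK-L differed by -6.46 (SE 0.52, adjusted p 4.23e-10). In 1 null OC library, replicate 6, Ctsk was at 221 CPM (counts scaled to the library size), against 37 to 62.7 in the other 5. Without it, null OC averaged 54.9 ± 11.2 TPM (SD, n = 5), and the log2 changes became -8.05 for genotype in OC, 3.72 for RANK-L in null and -7.08 for their difference. In replicate 6, 3 of the 10 osteoclast markers were also the highest of the group: Ocstamp at 4.15 TPM, Dcstamp at 4.82 and Oscar at 2.62. Nfatc1 was the lowest of the group there, at 15.4 TPM against 22.1 to 28.3 in the other 5, Calcr was at 0 in all 6, and the remaining 5 markers lay within the range of the others. The sum of the 10 markers in replicate 6 was 536 TPM, and the group median was 543. The osteoclast marker sums given above differed between WT OC and null OC in the same direction as Ctsk, and their part in the result was not tested.

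The OB cultures expressed Ctsk as well, at 1940.4 to 2311 TPM (median 2248) in WT and 2513 to 3618 (median 3077) in null, ranges that did not overlap on this scale. On counts the groups overlapped, and null was higher by 0.32 (SE 0.09, adjusted p 0.0147). A fit of all 36 libraries gave the same size, 0.33, with an adjusted p of 0.345, so that call rests on the spread taken from the OB libraries alone. The sum of the osteoclast markers was higher in the null OB libraries too, with Mmp9 at a mean of 552 TPM in WT OB and 1011 in null OB. Of the 10 markers, 4 passed as higher there (Atp6v0d2, Itgb3, Mmp9 and Nfatc1), against 15.5% of all genes, and the others did not pass. The part of these markers in the result was not tested. Against OC the genotype change was larger in OB by 7.77 (SE 0.39, adjusted p 3.94e-18), or 8.36 without null OC replicate 6.

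Ctsb, cathepsin B, an abundant protease of macrophage lysosomes at chr14:63122462-63145923, plus strand, was highest in WT BMM, at 9273 to 10576 TPM (median 9747). Its level was 5356 to 6706 (median 6005) in null BMM, 5497 to 6529.7 (median 5824) in null OC and 2769.6 to 3185 (median 2793) in WT OC. WT and null were apart in both cultures, in opposite directions. Null was lower with a log2 change of -0.56 (SE 0.06, adjusted p 1.08e-06) in BMM and higher by 1.23 (SE 0.04, adjusted p 3.31e-13) in OC. RANK-L went with a fall in WT, a log2 change of -1.90 (SE 0.05, adjusted p 7.97e-22), and with a change of -0.10 (SE 0.05, adjusted p 0.175) in null, where the ranges of OC and BMM overlapped. The responses differed by 1.80 (SE 0.07, adjusted p 9.91e-18). In OB, Ctsb was at 2231 to 2608 (median 2344) in WT and 1572 to 1978 (median 1789) in null, lower with a log2 change of -0.61 (SE 0.07, adjusted p 1.72e-05).

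Ctsc, cathepsin C, which activates the granule proteases of leukocytes, lies at chr7:88278085-88310888, plus strand and was also highest in WT BMM. It was at 747 to 875 TPM (median 853) in WT BMM, 335 to 514 (median 409.9) in null BMM, 262 to 294 (median 268) in WT OC and 383 to 504 (median 452) in null OC. Null was lower with a log2 change of -0.86 (SE 0.07, adjusted p 5.89e-08) in BMM and higher by 0.85 (SE 0.05, adjusted p 1.92e-10) in OC, with no overlap of WT and null in either culture. RANK-L in WT went with a fall, with a log2 change of -1.69 (SE 0.06, adjusted p 6.87e-19), and in null the change was 0.03 (SE 0.06, adjusted p 0.812). The difference of the responses was 1.72 (SE 0.09, adjusted p 1.97e-15). Of the 10 neutrophil markers only Mmp8 and S100a8 were high enough to be tested, while Elane and Retnlg were at 0 in all 4 groups. Both tested markers were higher in null BMM and in null OC, against 27% and 32.4% of all genes, whereas Ctsc was lower in null BMM. Mmp8 averaged 13.6 ± 0.995 TPM in WT BMM, 121 ± 13.7 in null BMM, 9.01 ± 0.66 in WT OC and 154 ± 16.2 in null OC. The part of these markers in the Ctsc results was not tested. In OB the libraries overlapped, at 276 to 360.4 (median 327) and 252 to 321 (median 281). Null was lower there with a log2 change of -0.39 (SE 0.09, adjusted p 0.00293) on counts, and on log2(TPM + 1) the change was -0.19, with a limma adjusted p of 0.0718.

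Ctsh, cathepsin H, which trims the ends of proteins as an aminopeptidase, lies at chr9:90054152-90076089, plus strand and had the largest rise of a cysteine cathepsin in null OC. It was at 54.3 to 61.8 TPM (median 56.2) in WT OC and 211 to 263 (median 236) in null OC, with a log2 change of 2.28 (SE 0.06, adjusted p 3.50e-15). In BMM it was at 159 to 208 (median 185) in WT and 277 to 320.0 (median 285) in null, a change of 0.86 (SE 0.09, adjusted p 6.11e-07). Neither pair overlapped, and WT OC was the lowest of the 6 groups. RANK-L went with a fall of Ctsh in both genotypes, with a log2 change of -1.79 (SE 0.07, adjusted p 1.00e-17) in WT and with a log2 change of -0.35 (SE 0.07, adjusted p 0.00348) in null, and the 2 falls differed by 1.43 (SE 0.10, adjusted p 2.53e-12). In OB, at 311 to 355 (median 329) and 303 to 407 (median 369.8), the change was 0.00 (SE 0.06, adjusted p 0.967) with a 95% interval of -0.12 to 0.13. Correcting the counts for length and GC content of the transcripts made it 0.21 (adjusted p 0.0179). Of the 11 Ctsh transcripts listed, 3 held at least 10% of its TPM. The one annotated as a target of nonsense-mediated decay held 37.4% of the mean TPM in WT BMM and 40.7% in WT OB, the lowest and highest of the group shares. Protein-coding transcripts alone gave 32.6 TPM in WT OC and 141 in null OC.

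Ctsl, cathepsin L, a broad lysosomal endopeptidase at chr13:64359337-64370890, minus strand, was higher in null in both myeloid cultures. It was at 312 to 427 TPM (median 404) in WT BMM and 450.1 to 680.2 (median 601) in null BMM, a log2 change of 0.76 (SE 0.13, adjusted p 1.66e-04). In OC it was at 365 to 432 (median 409) and 494 to 704 (median 646), a change of 0.86 (SE 0.09, adjusted p 4.27e-07). WT and null did not overlap in either, whereas OC and BMM overlapped within each genotype. The response to RANK-L was -0.05 (SE 0.12, adjusted p 0.739) in WT and 0.06 (SE 0.12, adjusted p 0.768) in null, and the WT value was 0.07 on log2(TPM + 1) (limma adjusted p 0.559). In OB, Ctsl was at 220.4 to 309.7 (median 272) in WT and 219.5 to 262 (median 232) in null, and null was lower with a log2 change of -0.36 (SE 0.09, adjusted p 0.00691). These OB ranges overlapped, and on log2(TPM + 1) the change was -0.16 (limma adjusted p 0.155).

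Ctss, cathepsin S, which processes the invariant chain for antigen presentation, lies at chr3:95526786-95556403, plus strand next to Ctsk on chromosome 3 and had the smallest genotype change of the 10 genes in OC. It was at 2389 to 2971 TPM (median 2812) in WT BMM and 1937 to 2435 (median 2170.4) in null BMM, lower with a log2 change of -0.20 (SE 0.07, adjusted p 0.0225). Without WT BMM replicate 1 the adjusted p was 0.0542. In OC, at 1821 to 2076 (median 1967) and 1832 to 2132 (median 1998), the change was 0.22 (SE 0.07, adjusted p 0.00905), and 0.01 on log2(TPM + 1) (limma adjusted p 0.833). The WT and null ranges overlapped in both cultures. RANK-L in WT went with a fall, with a log2 change of -0.61 (SE 0.07, adjusted p 1.13e-08), with no overlap of OC and BMM. In null the change was -0.18 (SE 0.07, adjusted p 0.0823), and the responses differed by 0.43 (SE 0.10, adjusted p 4.76e-04). OB held 1148 to 1417 (median 1241) in WT and 829.8 to 1189 (median 979) in null, lower with a log2 change of -0.55 (SE 0.08, adjusted p 2.10e-04).

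Ctsz, cathepsin Z, a carboxypeptidase at chr2:174427493-174439039, minus strand, had the smallest ratio of the highest to the lowest group mean among the cysteine cathepsins in the 4 myeloid groups, at 1.17 in TPM, with Ctss next at 1.41. It was at 1736 to 1857 TPM (median 1769) in WT BMM, 1980.2 to 2237 (median 2055) in null BMM, 1899 to 2154 (median 1967) in WT OC and 1991 to 2220.1 (median 2049.9) in null OC. Null was higher by 0.37 (SE 0.06, adjusted p 5.09e-05) in BMM, where the ranges were apart. In OC the change was 0.27 (SE 0.05, adjusted p 2.24e-04), and 0.07 on log2(TPM + 1) (limma adjusted p 0.244), where the ranges overlapped. The response to RANK-L was 0.03 (SE 0.05, adjusted p 0.592) in WT and -0.05 (SE 0.05, adjusted p 0.55) in null. These depend on the scale: on log2(TPM + 1) the WT response passed at 0.16 (limma adjusted p 0.00464) and the null response was 0.0013, and with the length and GC correction the difference of the responses passed at -0.17 (adjusted p 0.0137). OB held less than any other culture, at 817 to 951 (median 861) in WT and 714 to 816 (median 759) in null, lower with a log2 change of -0.35 (SE 0.05, adjusted p 1.39e-04) in null.

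Ctsd, cathepsin D, the aspartic protease that digests bulk protein in the lysosome, lies at chr7:142375911-142388038, minus strand and had the highest mean TPM of the 10 genes in every group but WT OC and null OB. It was at 14718 to 15323 TPM (median 15093) in WT BMM, 11662 to 13991 (median 12468) in null BMM and 12148 to 13834 (median 13041) in null OC, against 3981 to 4448 (median 4067) in WT OC. WT OC stood far below the other myeloid groups, with no overlap. RANK-L in WT went with a fall, with a log2 change of -1.99 (SE 0.06, adjusted p 2.14e-21), which is 3.97-fold, and with a change of 0.00 (SE 0.05, adjusted p 0.998) in null. The responses differed by 1.99 (SE 0.08, adjusted p 9.31e-18), and null exceeded WT in OC by 1.86 (SE 0.05, adjusted p 7.03e-15). In BMM the change was -0.12 (SE 0.06, adjusted p 0.117) on counts, and on log2(TPM + 1) it was -0.27 with a limma adjusted p of 7.65e-04. In OB, Ctsd was at 3869 to 4591 (median 4005) in WT and 2448 to 3194 (median 2727) in null, lower with a log2 change of -0.77 (SE 0.07, adjusted p 6.29e-06), the furthest fall of a member there.

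The lower cathepsins of null OB stood beside lower macrophage markers. Ctsb, Ctsl, Ctss, Ctsc, Ctsz and Ctsd were all lower in null OB, and so were 7 of the 10 macrophage markers, against 16.9% of all genes. Their sums, which are mostly Lyz2, are given above. In OC, where these 6 genes were higher in null, 8 of 10 macrophage markers were higher, against 32.4% of genes, and Cd68 was lower. In BMM, where the 6 genes were divided, 3 macrophage markers were higher and 6 lower, against 27% and 25.4% of genes. The part of the macrophage share in these results was not tested.

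Acp5, which encodes the tartrate-resistant acid phosphatase TRAP, lies at chr9:22126727-22135711, minus strand. Its 3 listed transcripts share the start codon and differ in the first exon. They are called here by the place of that exon: the proximal transcript, with its start nearest the coding sequence, starts at 22130598, the middle one at 22131815 and the distal one at 22135711 on chromosome 9. The windows before the 3 RefSeq start sites are shown because the use of these starts differed between cultures (below). They are chr9:22130609-22130758, chr9:22131866-22132015 and chr9:22135747-22135896, minus strand, GRCm38.p6, written 5′ to 3′ on that strand. Capitals mark an NFAT core and an M-box core, which bind factors known for osteoclast genes, both on the other strand and 117 and 90 bases before the start.
Acp5 proximal: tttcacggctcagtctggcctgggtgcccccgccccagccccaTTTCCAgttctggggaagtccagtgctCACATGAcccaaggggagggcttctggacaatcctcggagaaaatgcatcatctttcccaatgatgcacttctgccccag
Acp5 middle: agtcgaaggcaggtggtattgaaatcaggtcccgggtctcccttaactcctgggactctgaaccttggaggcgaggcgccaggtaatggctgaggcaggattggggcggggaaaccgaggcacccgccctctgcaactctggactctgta
Acp5 distal: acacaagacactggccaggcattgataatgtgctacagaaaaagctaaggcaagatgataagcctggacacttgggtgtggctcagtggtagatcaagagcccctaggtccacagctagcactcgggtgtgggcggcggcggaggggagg
Neither of the other 2 windows holds any of the 4 cores searched. The cores were not particular to Acp5 and Ctsk. Among the searched windows of other members, those of Cst3, Ctss and Ctsl held an NFAT core. That of Ctsd held the M-box core, and those of Cst3, Ctss and Ctsc held the PU.1 core. Of these genes, Ctsd, Ctss and Ctsc were lower in WT OC than in WT BMM. The shares of all windows with each core are given above, and a match or its absence describes these letters only.

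Acp5 was at 9010.3 to 10358 TPM (median 9173) in WT OC and 7.92 to 11.1 (median 9.91) in WT BMM, a log2 difference of 9.73 (SE 0.21, adjusted p 1.77e-22). In null OC it was at 70.8 to 178 (median 102) and in null BMM at 35.2 to 51.1 (median 43), a difference of 1.31 (SE 0.15, adjusted p 2.41e-05). All 4 groups were apart, with WT OC at the top and WT BMM at the bottom. Null was therefore lower than WT in OC, with a log2 change of -6.20 (SE 0.21, adjusted p 5.33e-12), and higher than WT in BMM, by 2.23 (SE 0.10, adjusted p 4.73e-11). The responses to RANK-L differed by -8.42 (SE 0.23, adjusted p 1.27e-19). In null OC replicate 6, Acp5 was at 164 CPM, against 64.7 to 97.3 in the other 5, and without it null OC averaged 94.7 ± 15.5 TPM (SD, n = 5). OB held 1489 to 2012 (median 1814) in WT and 1792 to 2692 (median 2182) in null, ranges that overlapped. The OB change was 0.10 (SE 0.10, adjusted p 0.502) on counts, and 0.28 on log2(TPM + 1) with a limma adjusted p of 0.0438. Ctsk and Acp5 did not keep a fixed ratio. Ctsk over Acp5 in TPM was 1.68 to 1.88 in WT OC, 0.481 to 1.23 in null OC, 0.728 to 1 in WT BMM and 0.0618 to 0.121 in null BMM. Null BMM had the lowest ratios of the 4, with less Ctsk and more Acp5 than WT BMM.

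The proximal transcript was the main one where Acp5 was high. It held 82.2% to 84% of Acp5 TPM in WT OC, 81.1% to 84.4% in WT OB and 82.3% to 85.8% in null OB. In WT BMM it held 0% to 38.3%, resting on 0 to 53 estimated counts a library, in null BMM 30.9% to 49.8% and in null OC 55.5% to 71.3%. The WT OC and null OC libraries did not overlap, and the null OC library with the highest share was replicate 6. The middle transcript held most of the rest, with 76.2% ± 13.7 (SD, n = 6) in WT BMM and 13.8% ± 0.544 in WT OC, and the distal one held at most 3.33% in any library. The mean share of the proximal transcript was higher in WT OC than in WT BMM by 59.4 points and in null OC than in null BMM by 22.3 points, and it changed by -23.4 points in null OC against WT OC, each with no overlap of the libraries. Null BMM differed from WT BMM by 13.8 points and null OB from WT OB by 1.38 points, with overlap in both. These pairs were chosen after the shares were seen, so no test is given. Estimated counts cannot separate transcripts beyond the reads over their first exons, and shares of estimated counts gave differences of the same sign, at 59.5, 22.2, -23.8, 13.5 and 1.42 points in the same order.

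**Figure D5:**
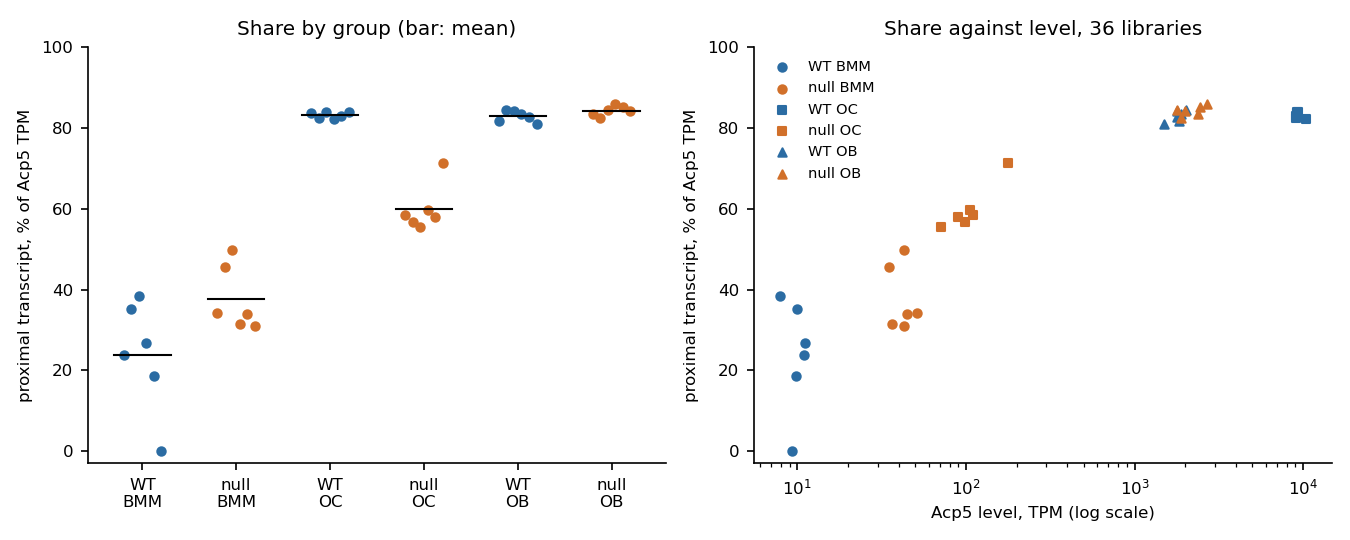
Left: the proximal transcript as a percent of Acp5 TPM (y axis) in the 6 groups (x axis), with 1 point a library and a bar at the mean. Right: the same percent against the Acp5 level in TPM (x axis, log scale) in the 36 libraries, where the OB and WT OC libraries lie between 81.1 and 85.8 percent, the null OC libraries between 55.5 and 71.3 and the BMM libraries at 49.8 or lower.

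Cst3, cystatin C, the secreted inhibitor of cysteine cathepsins, lies at chr2:148871722-148875692, minus strand and had the smallest ratio of the highest to the lowest mean TPM of the 6 groups among the 10 genes, at 1.82. It was at 2221 to 2555 TPM (median 2431) in WT OC, 1612 to 1929 (median 1857) in WT BMM, 1289 to 1759 (median 1527) in null BMM and 1198 to 1461 (median 1322) in null OC. The null OC libraries all lay below those of WT OC, and the BMM groups overlapped. Null was lower with a log2 change of -0.66 (SE 0.08, adjusted p 1.30e-06) in OC, and the BMM change was -0.10 (SE 0.11, adjusted p 0.453). In BMM the test on log2(TPM + 1) gave -0.27 (limma adjusted p 0.0138). RANK-L went with a rise by 0.28 (SE 0.10, adjusted p 0.016) in WT and a change of -0.27 (SE 0.10, adjusted p 0.0749) in null, and the responses differed by -0.55 (SE 0.14, adjusted p 0.0019). The call in null depends on single libraries. It passed without null BMM replicate 1 (adjusted p 0.0194), replicate 5 (0.0425) or replicate 6 (0.044), and without null OC replicate 6 (0.0402). In OB it was at 1829 to 2113 (median 2033) in WT and 1556 to 1777 (median 1609) in null, lower with a log2 change of -0.49 (SE 0.05, adjusted p 1.81e-05) with no overlap. The genotype change in OB and in OC differed by 0.19 (SE 0.13, adjusted p 0.22) on counts and by 0.56 on log2(TPM + 1) (limma adjusted p 2.21e-06).

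The amount of cathepsin transcript per inhibitor transcript was lower in the OB cultures than in the myeloid cultures. The 7 cysteine cathepsins over Cst3 in TPM gave 9.33 to 11.4 (median 9.79) in WT OC, 8.1 to 9.15 (median 8.68) in WT BMM, 6.17 to 9.72 (median 7.52) in null BMM and 7.69 to 9.59 (median 8.45) in null OC, and the 4 ranges overlapped in part. In OB the ratio was 3.59 to 3.99 (median 3.76) in WT and 4.04 to 5.12 (median 4.61) in null, with every null library above every WT library. For Ctsk alone over Cst3, the ratio was 6.44 to 7.83 in WT OC and 0.0298 to 0.15 in null OC, and 0.991 to 1.14 in WT OB and 1.57 to 2.29 in null OB. These ratios are of transcripts, not of proteins, and were not tested.

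Each member's 6 groups were ordered by mean CPM, and the 50 pairs of neighbours in these orders were compared in a fit of all 36 libraries. Of them, 31 passed and 19 did not, and 24 pairs had overlapping ranges, for which no share over all genes was taken. The pairs and the sign of each difference were picked from the same libraries that were tested. These calls therefore describe the orders and are no independent test of them. For Ctsk the order was WT OC, null OB, WT OB, null OC, WT BMM and null BMM, and for Acp5 it was the same with the BMM groups exchanged. The OB pair did not pass for either gene in this fit, which takes its spread from all 36 libraries. For Ctsk it passed on the spread of the OB libraries alone, as given above. Ctsb ran WT BMM, null BMM, null OC, WT OC, WT OB and null OB, with null BMM and null OC not separated at 0.11 (SE 0.06, adjusted p 0.193). Ctsd ran in the same way except that WT OB stood above WT OC, and it was not separated for WT BMM and null BMM, null BMM and null OC, or WT OB and WT OC. Ctss had the order of Ctsb, with null BMM and null OC not separated at 0.19 (SE 0.08, adjusted p 0.0958). Ctsl ran null OC, null BMM, WT BMM, WT OC, WT OB and null OB. Its first pair and the pair of WT BMM and WT OC were not separated. Ctsz ran null BMM, null OC, WT OC, WT BMM, WT OB and null OB, with the first pair and the pair of WT OC and WT BMM not separated. Ctsc ran WT BMM, null OC, null BMM, WT OB, WT OC and null OB, with null OC and null BMM, and WT OC and null OB, not separated. Ctsh ran null BMM, null OB, WT OB, null OC, WT BMM and WT OC, with the first 3 groups not separated step by step. For Cst3, ordered WT OC, WT OB, WT BMM, null BMM, null OB and null OC, only null BMM and null OB were separated, at 0.26 (SE 0.09, adjusted p 0.00888). Among all 14268 genes in that fit, the share that passed was 14.7% for null BMM and null OC, 26.3% for WT OB and null OB, 49.4% for WT BMM and null BMM, 50.4% for WT BMM and null OC, 56.2% for WT BMM and WT OC and 61.7% for WT OC and null OC. Between a myeloid culture and an OB culture it was 75.9% (null BMM and WT OB), 76% (null BMM and null OB), 76% (WT OC and null OB), 76.8% (WT BMM and WT OB), 76.9% (null OC and null OB), 77.2% (null OC and WT OB) and 77.9% (WT OC and WT OB).

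Other proteases of the lysosome were counted from a list of 8 genes, of which 6, 5 and 5 were tested in BMM, OC and OB. In BMM 5 were lower in null. In OC 2 were lower (Ctsf and Tpp1) and Ctso was higher, and in OB 3 were lower. The shares of all genes that were higher and lower in null, 27% and 25.4% in BMM, 32.4% and 33.1% in OC and 15.5% and 16.9% in OB, are the background of these counts and of those of the lists that follow. The median log2 change of the list was -0.52 in BMM, -0.07 in OC and -0.22 in OB, beside 0.02, -0.03 and 0.00 over all genes tested. With 3 to 7 genes tested a list, nothing is read from the counts alone. Lgmn, legumain, which cleaves cathepsin precursors, averaged 2576 ± 213 TPM (SD, n = 6) in WT BMM and 771 ± 70.9 in null BMM, a log2 change of -1.60 (adjusted p 1.48e-11), and its OC change was -0.07 (adjusted p 0.368). Ctsa, the protective protein of lysosomal glycosidases, changed by -0.50 (adjusted p 1.69e-06) in BMM and -0.02 (adjusted p 0.754) in OC, and Tpp1, a tripeptidyl peptidase, by -0.31 (adjusted p 1.37e-04) and -0.20 (adjusted p 0.00319).

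Of 11 other inhibitors, 10 were matched and 3, 5 and 6 were tested. In BMM, Cst7 and Cstb were higher in null and Serpinb6a was lower. In OC the directions were the opposite for all 3, and in OB Cst7 was higher and Cst6, Cstb and Serpinb6a were lower. The list medians were 0.32, -0.95 and -0.29. Cstb, stefin B, which inhibits cathepsins inside the cell, averaged 2299.6 ± 205 TPM in WT OC and 1035 ± 87.1 in null OC (-0.95 (adjusted p 1.19e-07)), and it was higher in WT OC than WT BMM by 1.04 (adjusted p 1.36e-09). Serpinb6a changed by -0.41 (adjusted p 0.0213) in BMM, 0.17 (adjusted p 0.0388) in OC and -0.38 (adjusted p 4.59e-05) in OB, and Cst7, an inhibitor found in the lysosomes of leukocytes, by 1.16 (adjusted p 0.0339), -1.27 (adjusted p 0.00598) and 0.60 (adjusted p 0.0271) at a mean of 3.13 TPM over all libraries. Serpinb1a changed by -1.02 (adjusted p 0.0915) in OC and -0.20 (adjusted p 0.342) in OB.

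Of 6 other acid phosphatases, 5 were matched and 3, 4 and 4 were tested. In BMM 1 was higher in null and 1 lower, in OC 1 and 2, and in OB 0 and 2, with list medians of 0.04, -0.30 and -0.13. Unlike Acp5, Acp2, the lysosomal acid phosphatase, was higher in null in both myeloid cultures, by 0.64 (adjusted p 4.18e-08) in BMM and 0.85 (adjusted p 2.36e-09) in OC, and lower in OB, with -0.19 (adjusted p 0.0147). Acp1 changed by 0.04 (adjusted p 0.701) in BMM, -0.46 (adjusted p 1.38e-05) in OC and -0.28 (adjusted p 0.00156) in OB, and Acp6 by -0.27 (adjusted p 0.0415), -0.15 (adjusted p 0.211) and -0.07 (adjusted p 0.606).

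All 6 genes of lysosomal sorting were tested. In BMM 3 were higher in null and 2 lower, in OC 3 and 3, and in OB 1 and 2, with list medians of 0.06, -0.12 and 0.13. M6pr, the smaller mannose-6-phosphate receptor, averaged 608 ± 37.8 TPM in WT OC and 269 ± 11.3 in WT BMM (1.05 (adjusted p 6.94e-15)), and its genotype changes were 0.57 (adjusted p 5.44e-06) in BMM, -0.44 (adjusted p 3.35e-07) in OC and -0.10 (adjusted p 0.243) in OB. Igf2r, the larger receptor, passed in each genotype comparison, with 0.22 (adjusted p 0.0208) in BMM, -1.15 (adjusted p 1.18e-10) in OC and 0.77 (adjusted p 5.41e-06) in OB. Nagpa, which uncovers the mannose-6-phosphate tag, changed by -0.23 (adjusted p 0.00151), 0.29 (adjusted p 0.00171) and -0.25 (adjusted p 0.00646), and Gnptg, a subunit of the enzyme that adds it, by -0.09 (adjusted p 0.385), 0.21 (adjusted p 0.0287) and -0.32 (adjusted p 8.39e-04). In OC, where 7 of the cathepsins were higher in null, both receptors and Gnptab were lower, and Gnptg, Nagpa and Sort1 were higher. The largest OC changes of the list were 3.34 (adjusted p 2.51e-09) for Sort1 and -1.75 (adjusted p 4.58e-11) for Gnptab. Sort1, the sortilin gene, averaged 0.363 TPM in WT OC and 3.35 in null OC. The part of these genes in the cathepsin results was not tested.

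Transcription factors known for Ctsk, Acp5 or lysosomal genes were the last list, with 7 of 7 tested. In BMM 1 was higher in null and 3 lower, in OC 2 and 5, and in OB 2 and 1, with list medians of -0.12, -0.68 and 0.02. Nfatc1, the factor induced by RANK-L, averaged 271 ± 49.4 TPM in WT OC, 23.7 ± 4.63 in null OC, 56.2 ± 7.85 in WT OB and 108 ± 36.2 in null OB. Its genotype changes were -0.79 (adjusted p 4.99e-05) in BMM, -3.31 (adjusted p 1.84e-11) in OC and 0.76 (adjusted p 0.0154) in OB. Mitf, which binds M-boxes, changed by -0.28 (adjusted p 0.00626), -0.68 (adjusted p 5.52e-05) and 0.31 (adjusted p 0.00568), and its relative Tfec by -0.35 (adjusted p 0.0415), -0.93 (adjusted p 1.42e-06) and -0.31 (adjusted p 0.0326). Spi1, which encodes PU.1, changed by 0.27 (adjusted p 0.134), -0.42 (adjusted p 8.13e-04) and -0.27 (adjusted p 0.137). Fos, part of AP-1, was the 1 factor higher in null BMM, at 0.89 (adjusted p 2.88e-07), and it was lower in null OC, at -1.26 (adjusted p 9.12e-09), with -0.12 (adjusted p 0.788) in OB. Of the 7, 5 were higher in WT OC than in WT BMM, against 30.4% of all genes, and Tfe3 was lower, against 30.1%.

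The genes with the pattern most like Ctsk, Acp5 and Cst3 were found by the root mean square difference of centred log2 CPM over the 36 libraries, among the 8938 genes that averaged 10 CPM or more. For Ctsk they were Oscar (0.53), Mt3 (0.896) and Rufy4 (0.939). Oscar averaged 315 TPM in WT OC, 1.49 in null OC and 37.4 in WT OB. For Acp5 they were Apbb1 (0.872), Ocstamp (0.905) and Ephx2 (0.937). For Cst3 they were Hint2 (0.145), Npc2 (0.145) and Cox7a2l (0.146). Oscar and Ocstamp are also on the osteoclast marker list.

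Some members overlap other genes in their exons, and the strand of the counting is not stated. Ctsb overlaps Fdft1 on the other strand, which reached at most 1.91% of the Ctsb TPM in a library, and Ctsz overlaps Nelfcd, at most 4.52%. Ctsd shares 27.3% of its words of 31 bases with the overlapping gene Gm49369, so reads of that stretch cannot be assigned between them, and Gm49369 was assigned at most 0.109% of the Ctsd TPM. Ctsl overlaps Gm47123 and Gm49230, and Acp5 overlaps 6530413G14Rik, whose values were not used here. The other members share at most 1.25% of such words with other genes.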

How the data were processed

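RNA-seq of 36 mouse cell cultures was used, grouped by the labels. The deposited tables give estimated counts and TPM for each transcript, per the file headers. Per the submitters' processing notes, kallisto and DESeq2 were used and the build was GRCh38, with no role or version given, while the transcript identifiers are those of mouse genes. Identifiers were matched to GENCODE M21 (GRCm38) for 97.5% of 88198 transcripts, and unmatched transcripts, 0.629% to 0.974% of a library's counts, were left out.

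The counts were added up by gene and rounded to whole numbers. After filterByExpr and TMM scaling, edgeR 4.0.16 (limma 3.58.1, R 4.3.3) gave robust quasi-likelihood F tests, with Benjamini-Hochberg adjustment over all genes tested and a threshold of 0.05. Genotype was fitted on the 12 libraries of a cell type, RANK-L and its interaction on 24, and the OB or OC interaction and group orders on 36. TPM served for levels, ratios and transcript shares. Promoter windows came from RefSeq (GRCm38.p6), which held 10 windows for 8 of the 10 members.

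All 10 members are reported. From each related list, the up to 3 genes with the highest mean TPM and those that passed in all 3 genotype comparisons are named. Other list genes are named only with a count, except Sort1 and Gnptab, which had the largest OC changes of the sorting list. The members and lists were chosen with earlier results of these data known. As alternatives, DESeq2 1.42.0, limma-voom with quality weights, RLE scaling, a filter on a mean of 10 counts or none, limma on log2(TPM + 1) and log2(TPM + 0.1), the replicate number as a block, protein-coding transcripts, offsets for average transcript length and for length with GC content (lowess span 0.3), a fit of 36 libraries and leaving out each library were run. Shares of estimated counts and means without null OC replicate 6 were added after seeing the data. On simulated counts with 200 genes changed, doublings were recovered for 95% of 100 genes in BMM, 99% in OC and 99% in OB, and for 84% and 75% in the RANK-L and the OB or OC interaction. Changes of 0.5 on the log2 scale were recovered for 50%, 54% and 45% in BMM, OC and OB. In the interactions they were recovered for 10% and 10%. The simulation changed far fewer genes than passed in the data and gave every gene the same dispersion. Its recoveries therefore do not measure those of the tests reported. For genes other than the members, a log2 change of 0.5 that did not pass is not shown to be absent. Recovery for the members themselves was not tested. No 95% interval of a member result that did not pass reached 0.5 in either direction. Those nearest to it were -0.46 to -0.07 for Cst3 and RANK-L in null, -0.22 to 0.44 for Ctsl in the RANK-L interaction and -0.06 to 0.44 for Cst3 in the OB or OC interaction. The closest pair of replicates differed by a chi-square of 3.46 per gene, so none was counted as a copy. The null BMM libraries formed 2 sets, replicates 2, 3 and 4 and replicates 1, 5 and 6. Pairs within a set differed by 10.4 to 17.2 per gene and pairs across them by 25 to 62.9. Cst3 was at 909 to 985 CPM in the first set and 602 to 682 in the second, and Ctsl at 893 to 1026 and 598 to 770. The cause was not tested. Depth was 14118972 to 26347581 counts a library, without molecular identifiers, so counting error understates the error of a low value.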

Additional observations from a re-analysis of the deposited data

Results flagged for a closer look

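Of 60 sets of 6 libraries (10 genes in 6 groups), 3 had 1 library whose gap to the next, as a share of the range, was over Dixon's critical value, and chance alone gives about 1 in 20 such sets. In null OC replicate 6, Ctsk was at 221 CPM (the other 5 at 37 to 62.7) and Acp5 at 164 CPM (the other 5 at 64.7 to 97.3). In WT BMM replicate 1, Ctsz was at 1725 CPM, against 1509 to 1565 in the other 5.

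The response to RANK-L differed between the genotypes for 8 members (edgeR's interaction test, as the null response minus the WT response on the log2 scale). The difference was -6.46 for Ctsk, -8.42 for Acp5 and -0.55 for Cst3. It was 1.8 for Ctsb, 0.43 for Ctss, 1.43 for Ctsh, 1.72 for Ctsc and 1.99 for Ctsd.

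The genotype change differed between OB and OC for 9 members (the change in OB minus that in OC). It was 7.77 for Ctsk and 6.31 for Acp5. The 7 other cathepsins had negative differences, at -1.83 for Ctsb, -1.21 for Ctsl, -0.75 for Ctss, -2.26 for Ctsh, -1.22 for Ctsc, -0.61 for Ctsz and -2.61 for Ctsd.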

How the results depend on the processing

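Of 2186 log2 changes of members under the alternatives, 26 had the other sign. All 26 were small and passed neither in the test reported nor under the alternative (lowest adjusted p 0.261). For Ctsd and RANK-L in null, 0.00 in the test reported, the value was -0.0086 with no filter, -2.8e-04 with a mean of at least 10 counts, -0.015 with limma-voom, -0.015 with protein-coding transcripts, -0.0043 with the length offset, -0.086 with the length and GC offset and -0.086 with the replicate block added to it. On log2(TPM + 1) and log2(TPM + 0.1) it was 0.073 and 0.073 for Ctsl and RANK-L in WT, and 0.0013 and 0.0013 for Ctsz and RANK-L in null. With 1 library left out, the ranges were -0.016 to 0.057 for Ctsh in OB and, for RANK-L in null, -0.041 to 0.029 for Ctsd, -0.014 to 0.14 for Ctsl and -0.0040 to 0.067 for Ctsc. DESeq2 gave no adjusted p for Ctsk in some comparisons. Of the values with the same sign and no library left out, 825 kept their side of the threshold, 19 passed only under the alternative and 11 no longer passed. With a library left out, 1298 kept it, 6 gained it and 1 lost it (Ctss in BMM without WT BMM replicate 1). The counts of all genes that moved by over 1.5 times were those for OB, from 4420 to 2289 with the length and GC offset, and those for RANK-L in null, from 1628 to 1013 with limma-voom. Adding the replicate block to that offset gave 1979 in OB and 1016 for RANK-L in null. Ranges over the fits without 1 library each were 810 to 2143 genes for RANK-L in null, lowest without null BMM replicate 3 (840 without replicate 2, 948 without replicate 4, 1046 without null OC replicate 3), and 3 to 5 members, the 5 without null OC replicate 6, where Ctss and Cst3 passed. They were 7 to 8 members in BMM, 10 in OC, 8 in OB, 8 for RANK-L in WT, 8 for the RANK-L interaction and 9 for the OB or OC interaction. The full order of the 6 groups was the same for 4 of 10 members by deposited TPM, 4 by TPM of protein-coding transcripts, and 6 to 10 with 1 replicate number left out (6 without replicate 2). The causes were not tested.

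No pairing of the libraries by replicate number was detected: in no pair of groups were all 6 same-number correlations over 0.1 (lowest -0.28, highest 0.249). An effect of a shared animal smaller than the spread between libraries could be missed, and the labels leave pairing open. With the replicate number as a block, 7 members passed in BMM (Ctss had an adjusted p of 0.0669), 10 in OC, 8 in OB, 8 for RANK-L in WT, 3 in null, 8 and 9 for the interactions. Of 90 same-number pairs, 11 correlated best with their own number.

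Depth limits the values of Acp5 transcripts in WT BMM most, where the proximal one had 0 to 53 estimated counts. Protein-coding transcripts alone changed the mean TPM of Ctsh in all 6 groups by more than 1 SD. Of the 9 genes named as most like Ctsk, Acp5 and Cst3, 5 were also named by group means and 5 by log2(TPM + 1).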
